A study of Mus musculus with 32 samples.

Results

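At passage 2, mouse embryonic stem cells grown with T0901317 were compared with untreated cells of the same passage. The comparison used 4 of the 32 libraries of the series, chosen by the labels of treatment and passage: 2 libraries of the treated cells (NrESC) and 2 of the control (ESC). The cells were E14, an established wild-type mouse embryonic stem cell line, on gelatin. Both groups received 15% fetal bovine serum, 1000 U/mL of the cytokine LIF, 3 µM CHIR99021, an inhibitor of the kinase GSK3, and 1 µM PD0325901, an inhibitor of MEK, the kinase that activates ERK. The NrESC group also received 10 µM T0901317. Polyadenylated RNA was sequenced, and groups of 2 libraries were taken in each arm at 8 passages from 0 to 14. The labels give the NrESC libraries of passage 0 the agonist as well, and do not say for how long it had been present at passage 0 or 2. The labels leave unsaid whether the 2 libraries of each group are separate cultures, and p-values therefore measure only the spread between these libraries, which may be technical.

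T0901317 is a man-made compound that activates both liver X receptors (LXR alpha and LXR beta). These are nuclear receptors that sense oxidised cholesterol and bind DNA as partners of the retinoid X receptors. They are known for switching on the export of sterols from cells and, through the transcription factor SREBP1c (gene Srebf1), the synthesis and desaturation of fatty acids. Embryonic stem cells held with LIF, a GSK3 inhibitor and a MEK inhibitor are in the naive pluripotent state, in which a few cells at a time enter a transient state with transcripts of the 2-cell embryo.

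The 4 libraries held 36491682 and 34945536 counts in ESC and 43579923 and 29054115 in NrESC. The median SD between the 2 libraries of a group was 0.049 in ESC and 0.0578 in NrESC on the log2 scale. All 6 embryonic stem cell markers were present in every library, with Pou5f1 at 2310 and 2240 TPM (a level scaled for transcript length and library size) in ESC and 2360 and 2430 in NrESC. The summed level of 6 trophoblast markers was 23.2 and 24.5 TPM in ESC and 15.9 and 16.9 in NrESC, that of 5 primitive endoderm markers 3.95 to 5.60 TPM over the 4 libraries, that of 7 fibroblast markers 4.08 to 5.10 and that of 4 neural markers 12.2 to 12.6. The part of these marker levels in the results was not tested. Histone transcripts took 0.00251% and 0.00264% of the counts in ESC and 0.00325% and 0.0033% in NrESC, and the part of this in the results was not tested either.

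The second ESC library stood apart in 1 respect. It alone held 11 transcripts with at least 20 counts and more than 4 times the level, relative to library size, of any of the other 31 libraries. Kap, a kidney androgen-regulated transcript, had 147 counts in it and at most 1 elsewhere. Umod, the uromodulin of the kidney tubule, had 25 and Slc34a1, a phosphate transporter of the proximal tubule, 21, both with 0 in all other libraries. Lyz2, the lysozyme of myeloid cells, had 62 counts and at most 1 elsewhere, and Csf1r, the receptor for the macrophage growth factor, 23 and at most 4. The 11 transcripts held 0.00126% of the counts of that library, none of them was among the genes tested, and their part in the results was not tested. Leaving this library out lowered the number of genes called at passage 2, and leaving out any other of the 4 libraries lowered it by a similar amount.

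Over the 15036 genes tested, T0901317 was followed by higher levels of 3720 genes (24.7%) and lower levels of 3573 (23.8%) at an adjusted p of 0.05, 48.5% in either direction. The direction was nearly balanced, with a median log2 fold change of 0.00595 over all genes. Most differences were small: 273 of the called genes were higher by 2-fold or more (1.82% of those tested) and 424 lower by 2-fold or more (2.82%). On log2(TPM + 1) values, which understate the change of low genes, 49 and 59 passed 2-fold. The 2 libraries of each group did not overlap for 7262 of the 7293 called genes, but neither did they for 71.8% of all genes tested. At passage 0, where 17.6% of genes were called higher and 14.8% lower, the direction was already the same for many: 1979 of the 3720 genes higher at passage 2 (53.2%, and 74.8% of those higher at passage 0) and 1703 of the 3573 lower (47.7%, and 76.4%) were called so there too. The opposite call at passage 0 was found for 38 and 43 genes.

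**Figure D1:**
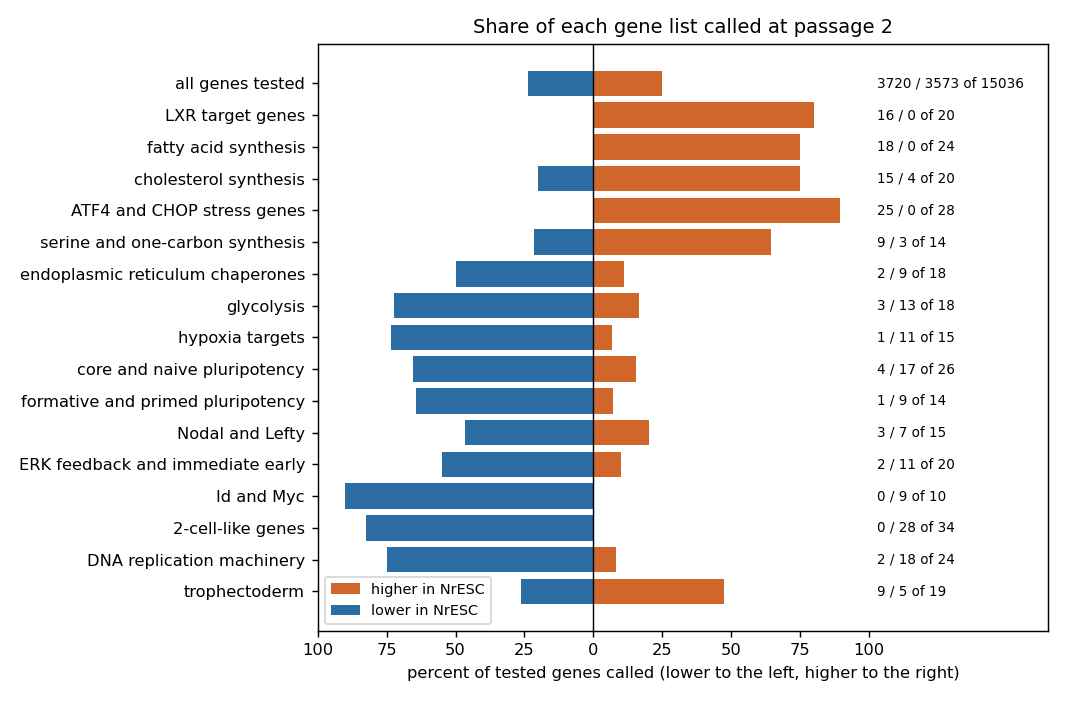
Percent of the tested genes of each list called higher (right) or lower (left) in NrESC than in ESC at passage 2, with 2 libraries per group; the figures at the right are genes higher, genes lower and genes tested. All genes tested are at the top, with 24.7% higher and 23.8% lower, and the lists of LXR targets, lipid synthesis and ATF4 genes lie to the right while those of 2-cell-like genes, Id and Myc genes, DNA replication and hypoxia lie to the left.

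The receptors changed little. Nr1h2, which encodes LXR beta, had 65.4 and 60.1 CPM (counts scaled to library size) in the ESC libraries and 65.6 and 68.3 in the NrESC libraries, a difference of 0.09 on the log2 scale (SE 0.047, adjusted p = 0.119). The groups did not overlap but lay close together, and without the first ESC library the value was 0.15 (adjusted p = 0.0302). Nr1h3, which encodes LXR alpha, was near 1 CPM throughout, at 0.866 and 0.928 in ESC and 1.06 and 1.14 in NrESC (0.29, SE 0.32, adjusted p = 0.49). The partners Rxra (-0.08, SE 0.05) and Rxrb (0.07, SE 0.045) were not called. Rxrg, the third retinoid X receptor, was called lower on a handful of counts, at 0.14 and 0.232 CPM in ESC and 0.023 and 0 in NrESC, and the call was lost without the second ESC library (adjusted p = 0.0635) or the second NrESC library (adjusted p = 0.0509). Of the 6 coregulators tested, the corepressor Ncor1 fell from 422 and 421 to 367 and 362 CPM (log2 fold change -0.21, SE 0.022) and the coactivator Ncoa2 fell by 0.15 on the log2 scale. The Ncoa2 call was lost without the first NrESC library (adjusted p = 0.0949).

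The targets of these receptors moved together. Among the LXR targets, 16 of 20 tested genes rose and none fell, with a median log2 fold change of 0.97 against 0.00595 over all genes, and 9 of them rose by 2-fold or more. The change was largest in the sterol exporters. Abcg1, a transporter that passes cholesterol to lipoproteins, had 4.89 and 4.29 CPM in ESC and 118 and 115 in NrESC, a 25.5-fold difference (log2 4.67, SE 0.064, adjusted p = 6.44e-41). Abca1, which loads cholesterol onto apolipoprotein A-I, had 37.2 and 38.1 CPM in ESC and 413 and 406 in NrESC, 10.9-fold higher (log2 3.44, SE 0.034). In both genes the NrESC libraries lay far above the ESC libraries and the libraries of a group nearly coincided. Arl4c, a small GTPase linked to cholesterol export, went from 3.71 and 3.68 to 7.64 and 7.95 CPM (log2 1.07, SE 0.11), while Abcg4, a relative of Abcg1, stayed near 1 CPM (0.16, SE 0.23, adjusted p = 0.59).

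Among the lipoprotein genes, Mylip led. It encodes a ubiquitin ligase that limits lipoprotein uptake, and it had 6.9 and 6.06 CPM in ESC and 37.8 and 38.1 in NrESC, 5.85-fold higher (log2 2.55, SE 0.077). The other members rose by smaller amounts: Apoe (log2 0.25), Apoc1 (0.25), the phospholipid transfer protein Pltp (0.42) and the lipoprotein lipase Lpl (0.43). The Apoc1 call was lost without the first NrESC library (0.17, adjusted p = 0.0867). Of the lipogenic targets, Srebf1, a master switch of lipogenesis, went from 106 and 100 to 299 and 322 CPM (log2 1.59, SE 0.036). Scd1, a stearoyl-CoA desaturase, went from 277 and 275 to 1040 and 1020 CPM (1.90, SE 0.025). Mid1ip1, which activates acetyl-CoA carboxylase, went from 17.1 and 17.3 to 54.9 and 56.4 CPM (1.69, SE 0.052). The groups did not overlap in any of these 3, nor did they for 71.8% of all genes tested. Mlxipl, the carbohydrate-sensing factor ChREBP, was not called (-0.20, SE 0.09, adjusted p = 0.0696), though its groups did not overlap either. Tmem135, a membrane protein of peroxisomes and mitochondria, was called at 0.14, and the call was lost without the first ESC library (0.05, adjusted p = 0.555) or the first NrESC library (0.07, adjusted p = 0.437). It was also lost with the replicate block (adjusted p = 0.0582), RLE scaling (0.0522), log2(TPM + 1) in limma (0.0762) and DESeq2 (0.107). Smpdl3a, a phosphodiesterase, was at 0.0279 and 0.319 CPM in ESC and 0.368 and 0.518 in NrESC and was not called (1.32, SE 0.61, adjusted p = 0.0712). Without the second ESC library its value was 3.79 (adjusted p = 0.00424), and it was called with the replicate block (1.44, adjusted p = 0.0407) and with no filter on low counts (1.32, adjusted p = 0.0496).

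**Figure D2:**
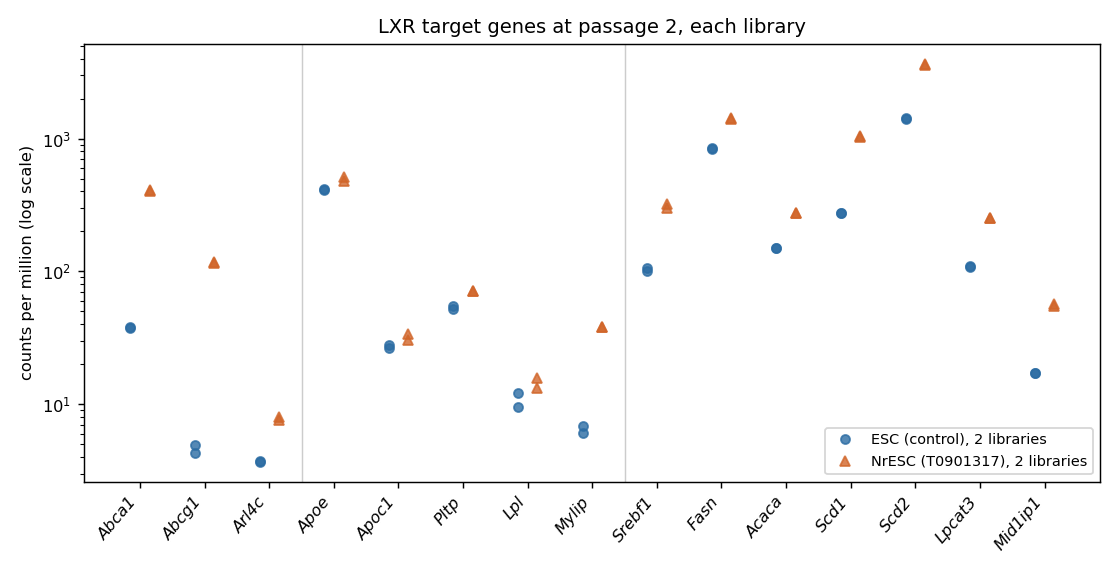
CPM (log scale) of 15 called LXR target genes in each library at passage 2, circles for the 2 ESC libraries and triangles for the 2 NrESC libraries; vertical lines separate sterol export, lipoprotein and lipogenic genes. The largest gaps are those of Abcg1 (4.89 and 4.29 against 118 and 115) and Abca1 (37.2 and 38.1 against 413 and 406). Tmem135, a called gene whose groups overlap, is not shown, and 71.8% of all genes tested have groups that do not overlap.

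The promoters of 3 of these genes are shown because they hold nearly the same 16-base stretch. LXR and its partner bind 2 copies of a hexamer close to AGGTCA, one after the other with a short gap. Windows of 300 bases, 250 before and 50 after the start of transcription, were taken from RefSeq in the build GRCm38.p6, which differs from the build of the counts, and run 5′ to 3′ on the strand of the gene. Abca1 lies at chr4:53159846-53160145, Srebf1 at chr11:60210422-60210721 and Fasn, the fatty acid synthase, at chr11:120824498-120824797, all on the minus strand. Capitals mark matches to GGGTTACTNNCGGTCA, which here reads on the opposite strand and begins 67, 182 and 225 bases before the start of transcription.
Abca1: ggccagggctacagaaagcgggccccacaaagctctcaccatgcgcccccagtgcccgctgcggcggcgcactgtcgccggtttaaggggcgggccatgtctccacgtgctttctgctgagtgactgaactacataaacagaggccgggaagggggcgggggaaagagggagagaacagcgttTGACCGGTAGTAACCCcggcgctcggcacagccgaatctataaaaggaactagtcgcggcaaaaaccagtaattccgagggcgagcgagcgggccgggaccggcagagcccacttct
Srebf1: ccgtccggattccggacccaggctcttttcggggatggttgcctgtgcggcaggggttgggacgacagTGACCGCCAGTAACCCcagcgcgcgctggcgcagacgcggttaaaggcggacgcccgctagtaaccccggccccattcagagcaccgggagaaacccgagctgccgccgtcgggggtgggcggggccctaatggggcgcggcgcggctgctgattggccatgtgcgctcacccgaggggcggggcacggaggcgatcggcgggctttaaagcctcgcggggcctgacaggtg
Fasn: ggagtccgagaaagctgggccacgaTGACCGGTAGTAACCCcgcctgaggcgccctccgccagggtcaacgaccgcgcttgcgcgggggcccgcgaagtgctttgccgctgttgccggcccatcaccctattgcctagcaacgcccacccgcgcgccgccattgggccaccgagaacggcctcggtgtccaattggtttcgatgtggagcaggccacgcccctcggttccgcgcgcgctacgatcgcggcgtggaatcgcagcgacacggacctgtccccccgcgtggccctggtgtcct
The stretch is the most alike 16-base run of these 3 promoters, with N where they differ. It was then searched on both strands, and of 32851 promoter windows only these 3 (0.00913%) held it. Because the stretch was taken from these 3 windows, their matches were fixed in advance. The count therefore does not show that the stretch is particular to LXR targets. A looser search for 2 copies of AGGTCA with 4 bases between them and up to 3 mismatches, on both strands, matched 5 of the 13 tested LXR target genes that had a promoter entry and 21.9% of all windows. A match describes the sequence and not a bound site.

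Genes of fatty acid synthesis rose as a group, several of them members of the LXR target list as well. Of 24 tested, 18 rose and none fell, with a median of 0.42. Of all genes tested, 24.7% rose and 23.8% fell. In the steps from citrate to palmitate 7 of 9 rose. Fasn went from 855 and 834 to 1410 and 1430 CPM (log2 0.75, SE 0.023) and Acaca, the acetyl-CoA carboxylase that commits carbon to this pathway, from 149 and 150 to 276 and 273 CPM (0.88, SE 0.027). In desaturation and elongation 7 of 8 rose, among them Scd2, the desaturase paralog of Scd1, from 1400 and 1420 to 3650 and 3610 CPM (1.36, SE 0.019). In esterification and remodelling 4 of 7 rose. Lpcat3, which places polyunsaturated fatty acids into phospholipids, went from 107 and 109 to 250 and 252 CPM (1.22, SE 0.03). Scd1 and Scd2 are similar in sequence, so their counts depend on how reads matching both were divided.

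Cholesterol synthesis moved less. Of 20 tested genes 15 rose and 4 fell, against 24.7% and 23.8% of all genes tested. The list median was 0.17, and none changed by 2-fold. The largest rises on this list included those of the phosphomevalonate kinase Pmvk, from 43.3 and 42.3 to 61.7 and 64.6 CPM (log2 0.56, SE 0.043), and of Dhcr7, which completes cholesterol, from 108 and 112 to 160 and 161 CPM (0.55, SE 0.03). Of the sterol sensors, Insig1, which holds SREBP proteins in the endoplasmic reticulum, rose by 0.32 (SE 0.032) and Srebf2, the cholesterol-synthesis SREBP, by 0.27 (SE 0.028). The sterol carrier Stard4 rose by 0.34 (SE 0.04). At passage 4 the cholesterol list had a median of 0.52, and the difference at passage 4 exceeded that at passage 2 for 14 of the 20 genes and fell short of it for none, against 6% and 5.66% of all genes in those directions.

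Targets of ATF4 and CHOP, the transcription factors of the integrated stress response, were higher in NrESC almost throughout. Of 28 tested, 25 rose and none fell, with a median of 0.60. All 5 factors of the list rose, including Atf4 itself, from 302 and 302 to 437 and 452 CPM (log2 0.56, SE 0.026), and Ddit3, which encodes CHOP, from 6.98 and 7.66 to 15.4 and 13.1 CPM (0.98, SE 0.081). Trib3, a pseudokinase that CHOP induces, went from 22.5 and 23.5 to 49.4 and 48.7 CPM (1.09, SE 0.05). Chac1, which degrades glutathione, went from 11.6 and 11.4 to 28.9 and 30.8 CPM (1.37, SE 0.082), and Slc7a11, the cystine importer, from 0.782 and 0.986 to 2.74 and 2.56 CPM (1.59, SE 0.23). Every NrESC library was above both ESC libraries in these genes, while 71.8% of all genes tested had groups that did not overlap. Genes of amino acid supply were also higher: the asparagine synthetase Asns rose by 0.51 (SE 0.021), and the subunits of a leucine transporter, Slc7a5 and Slc3a2, by 0.78 (SE 0.022) and 0.70 (SE 0.027). Of 14 genes of serine and one-carbon synthesis 9 rose and 3 fell, led by Phgdh, the first enzyme of serine synthesis, from 139 and 132 to 264 and 287 CPM (1.02, SE 0.033), Psat1 (0.76, SE 0.023) and the mitochondrial Mthfd2 (0.63, SE 0.026). The chaperones of the endoplasmic reticulum did not rise with them: of 18 tested, 2 rose and 9 fell, against 24.7% and 23.8% of all genes tested. Hspa5, the main chaperone of that compartment, fell from 801 and 796 to 663 and 667 CPM (-0.26, SE 0.021) and Dnajb9 fell by 0.48 on the log2 scale (SE 0.078), while Herpud1, which acts in protein degradation there, rose by 0.51 (SE 0.064).

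The promoters of Chac1 and Slc7a11 are shown for the element TGATGNAA, the core to which ATF4 binds with a C/EBP partner. Chac1 lies at chr2:119350992-119351291 on the plus strand, with 1 match, and Slc7a11 at chr3:50443564-50443863 on the minus strand, with 2 matches that begin 66 and 47 bases before the start. Capitals mark the matches on either strand.
Chac1: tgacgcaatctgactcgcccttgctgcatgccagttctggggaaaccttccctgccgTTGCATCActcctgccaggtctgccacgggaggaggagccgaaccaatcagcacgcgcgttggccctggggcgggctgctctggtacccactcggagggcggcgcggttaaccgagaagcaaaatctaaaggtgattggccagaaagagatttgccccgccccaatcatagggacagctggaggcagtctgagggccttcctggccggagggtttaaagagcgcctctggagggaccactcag
Slc7a11: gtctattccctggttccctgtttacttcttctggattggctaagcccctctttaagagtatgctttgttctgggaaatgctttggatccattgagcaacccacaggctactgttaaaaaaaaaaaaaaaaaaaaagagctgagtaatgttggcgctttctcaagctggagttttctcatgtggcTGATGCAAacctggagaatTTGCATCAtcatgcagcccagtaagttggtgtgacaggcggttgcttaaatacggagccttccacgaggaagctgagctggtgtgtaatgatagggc
Of the 28 genes of this list 22 had a promoter entry, and 8 of those held TGATGNAA on either strand: Atf3, Trib3, Chac1, Asns, Vldlr, Slc7a11, Fgf21 and Nupr1. The same letters were in 3.97% of all windows. A gene may have more than 1 window, and no test was made.

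Naive pluripotency genes were mostly lower, by small amounts. Of 26 tested, 17 fell and 4 rose, against 23.8% and 24.7% of all genes tested. The list median was -0.26, and none changed by 2-fold. Nanog, a core factor of self-renewal, fell from 1380 and 1370 to 1050 and 1020 CPM (log2 -0.41, SE 0.021), and Sox2 from 372 and 382 to 274 and 279 CPM (-0.45, SE 0.027). Pou5f1, which encodes OCT4, was nearly level at 1540 and 1460 CPM in ESC and 1560 and 1630 in NrESC. It was called higher at 0.09 (SE 0.025, adjusted p = 0.00379), but the call was lost without the second ESC library (adjusted p = 0.219) or the second NrESC library (adjusted p = 0.133). Dppa2, a chromatin factor that also acts upstream of 2-cell genes, fell from 130 and 127 to 63.9 and 66.8 CPM (-0.98, SE 0.04). Dppa5a, an RNA-binding protein of the naive state, rose from 1060 and 946 to 1420 and 1430 CPM (0.51, SE 0.039).

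Genes of the formative and primed states were lower too. Of 14 tested, 9 fell and 1 rose, against 23.8% and 24.7% of all genes tested. The list median was -0.59, and 4 fell by 2-fold or more. Zic2, a zinc finger factor of primed enhancers, fell from 40.4 and 40.5 to 12.9 and 12.8 CPM, 3.15-fold lower (log2 -1.65, SE 0.06). The groups were far apart. Dnmt3b, the de novo methyltransferase that marks exit from the naive state, was not called, at 101 and 101 CPM in ESC and 98.5 and 101 in NrESC (-0.02, SE 0.032, adjusted p = 0.57).

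The feedback inhibitors of Nodal, a TGF-beta family ligand that acts in these cells, were among the largest decreases. Lefty1 fell from 11.4 and 10.4 to 2.25 and 3.08 CPM (log2 -2.07, SE 0.14) and Lefty2 from 189 and 176 to 45.9 and 43.2 CPM (-2.03, SE 0.037). These were 4.20-fold and 4.08-fold lower. The rest of the pathway moved less: of 15 tested genes 7 fell and 3 rose, and the list median was -0.14. Of 13 beta-catenin targets 5 fell and 3 rose, against 23.8% and 24.7% of all genes tested. Ccnd1, which encodes cyclin D1, fell from 157 and 153 to 102 and 104 CPM (-0.59, SE 0.033). Notum, a secreted Wnt inhibitor, fell from 18.3 and 19.8 to 9.41 and 10.2 CPM (-0.96, SE 0.075).

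Transcripts that respond to ERK signalling were lower in NrESC at passage 2, in groups that received the same MEK inhibitor. Of 20 tested, 11 fell and 2 rose, with a median of -0.29. Of all genes tested, 23.8% fell and 24.7% rose. Egr1, an immediate early transcription factor, had 62.2 and 65.9 CPM in ESC and 10.1 and 11.1 in NrESC, 6.08-fold lower (log2 -2.60, SE 0.094, adjusted p = 3.02e-25). Fos, its AP-1 counterpart, fell from 6.17 and 7.02 to 2.72 and 2.9 CPM (-1.24, SE 0.15), and Spry4, a feedback inhibitor of the pathway, from 49.6 and 51.9 to 26.9 and 28.9 CPM (-0.87, SE 0.063). In all 3 both ESC libraries were above both NrESC libraries, while 71.8% of all genes tested had groups that did not overlap. Dusp6, the phosphatase that switches ERK off, was not called, at 21.8 and 21.7 CPM in ESC and 19.8 and 23.5 in NrESC (-0.02, SE 0.078, adjusted p = 0.87). Of 10 Id and Myc genes 9 fell and none rose, with a median of -0.53. Myc, which drives growth genes, fell from 37.8 and 37.4 to 11.4 and 12.0 CPM (-1.69, SE 0.07), its partner Max from 83.0 and 86.1 to 63.1 and 58.7 CPM (-0.47, SE 0.04), and Id3, a BMP-induced inhibitor of differentiation, from 42.6 and 40.1 to 17.6 and 19.7 CPM (-1.16, SE 0.069).

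For Egr1 and Myc the difference was larger at passage 2 than at passage 0 or 4. In ESC, Egr1 stood at 0.342 ± 0.18 CPM at passage 0, 64.1 ± 2.6 at passage 2 and 1.04 ± 0.31 at passage 4, and in NrESC at 0.267 ± 0.099, 10.6 ± 0.72 and 0.438 ± 0.17 (SD, n = 2 each). It rose in both arms from passage 0 to passage 2, by 7.45 (SE 0.16) in ESC and 5.36 (SE 0.21) in NrESC on the log2 scale. The difference between the arms was larger at passage 2 than at passage 0 by -2.09 (SE 0.49, adjusted p = 0.00279), a call lost without the first NrESC library of passage 0 (adjusted p = 0.0762), and it shrank again by 1.42 at passage 4 (SE 0.37, adjusted p = 0.00862), a call lost without the second NrESC library of passage 4 (0.89, adjusted p = 0.442). Myc went from 16.1 ± 0.089 to 37.6 ± 0.26 CPM in ESC and was 10.9 ± 0.38 and 11.7 ± 0.43 in NrESC (SD, n = 2 each). Its change from passage 0 to 2 was 1.23 (SE 0.067) in ESC and 0.10 (SE 0.081, adjusted p = 0.416) in NrESC, with a difference between the arms of -1.13 (SE 0.11, adjusted p = 1.81e-10). At passage 4 the gap was smaller by 1.02 (SE 0.12). Fos in ESC was 1.38 ± 0.3 CPM at passage 0, 6.59 ± 0.6 at passage 2 and 2.39 ± 0.057 at passage 4 (SD, n = 2 each). Of the 20 ERK-responsive genes, 10 had a more negative difference at passage 2 than at passage 0 and 1 a more positive one, against 7.16% and 6.3% of all genes.

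**Figure D3:**
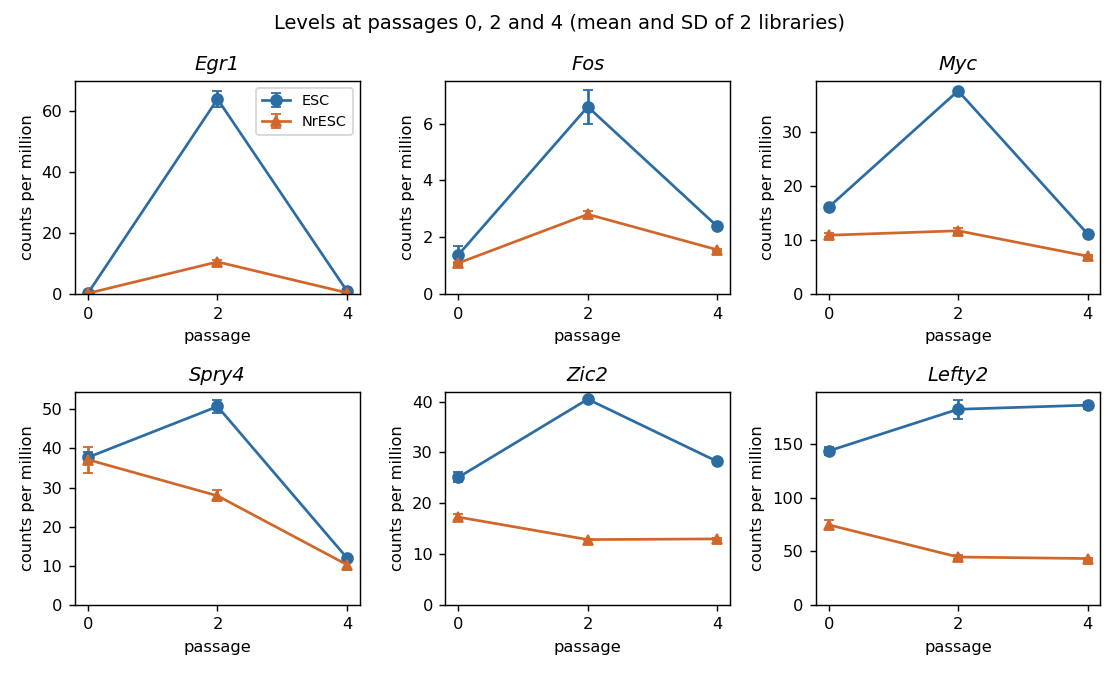
CPM at passages 0, 2 and 4 of 6 genes in ESC (circles) and NrESC (triangles), as the mean of 2 libraries with their SD. Egr1, Fos and Myc are highest at passage 2 in ESC (64.1, 6.59 and 37.6 CPM), while Lefty2 is at 182 CPM in ESC and 44.6 CPM in NrESC at passage 2.

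Genes of the 2-cell-like state were lower almost throughout. Of 34 tested, 28 fell and none rose, 25 of them by 2-fold or more, with a median of -1.66. In bulk RNA, fewer cells in that state and less RNA in each of them cannot be told apart. All 5 Zscan4 genes tested fell, by 1.63 to 1.88 on the log2 scale. Zscan4c, a telomere-associated marker of the state, had 16.4 and 16.7 CPM in ESC and 4.97 and 4.7 in NrESC (log2 -1.77, SE 0.093), and Tmem92, a membrane protein transcribed in the same cells, fell from 4.78 and 4.64 to 1.47 and 1.18 CPM (-1.80, SE 0.15). The Zscan4 genes are close copies, so the division of reads among them is uncertain, and their agreement is not that of separate measurements. Dux, which activates the state, was at 0.14 and 0.174 CPM in ESC and 0.023 and 0.0691 in NrESC and was not called (adjusted p = 0.103). From passage 0 to 4 most of the movement was in ESC. Zscan4c in ESC went from 5.82 ± 0.23 at passage 0 to 16.6 ± 0.16 at passage 2 and 42.7 ± 1.1 CPM at passage 4, while NrESC had 3.12 ± 0.64, 4.84 ± 0.19 and 5.59 ± 0.41 (SD, n = 2 each). Both Pramel6 and Pramel7, PRAME family genes of leucine-rich repeat proteins, fell, Pramel6 from 8.55 and 8.12 to 1.56 and 1.87 CPM (-2.30, SE 0.13) and Pramel7 from 3.63 and 4.03 to 0.805 and 0.795 CPM (-2.25, SE 0.19). Of 6 members tested 3 fell and 1 rose, against 23.8% and 24.7% of all genes tested.

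Glycolysis and hypoxia genes were lower. Of 18 glycolysis genes 13 fell and 3 rose, with a median of -0.21. Of all genes tested, 23.8% fell and 24.7% rose. Ldha, which makes lactate, fell from 1440 and 1400 to 997 and 1010 CPM (log2 -0.50, SE 0.02) and Slc16a3, which exports it, from 159 and 151 to 87.8 and 92.7 CPM (-0.78, SE 0.034). Hk1, a hexokinase, went the other way, from 154 and 155 to 216 and 221 CPM (0.50, SE 0.026). Of 15 hypoxia targets 11 fell and 1 rose, with a median of -0.44. The mitophagy receptor Bnip3 fell from 72.2 and 71.6 to 36.0 and 33.9 CPM (-1.03, SE 0.042), Ndrg1 from 42.2 and 41.1 to 22 and 21.2 CPM (-0.95, SE 0.059) and the histone demethylase Kdm3a by 0.61 on the log2 scale (SE 0.025). The riser was Vegfa, the angiogenic growth factor, from 44.0 and 43.1 to 64.9 and 68.4 CPM (0.61, SE 0.043). At passage 0 the list median was -0.61. The difference was more positive at passage 2 than at passage 0 for 6 of the 15, against 6.3% of all genes, and more negative for 1, Kdm3a, against 7.16%.

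Cell cycle genes showed small, even decreases. Of 24 genes of DNA replication 18 fell and 2 rose, with a median of -0.13. Of all genes tested, 23.8% fell and 24.7% rose. Mcm2, a subunit of the replicative helicase, fell from 892 and 881 to 753 and 795 CPM (log2 -0.20, SE 0.024), the flap nuclease Fen1 by 0.33 (SE 0.034) and Ccne2, which encodes a cyclin E, by 0.60 (SE 0.061). Of 23 p53 targets 10 rose and 9 fell, against 24.7% and 23.8% of all genes tested. Their median was -0.0114, with values from -0.595 to 0.664. The 3 of lowest p, named here, were all among those that rose. Cdkn1a, the inhibitor p21, rose from 170 and 174 to 271 and 275 CPM (0.66, SE 0.026), as did the stress genes Ddit4 (0.53, SE 0.049) and Sesn2 (0.35, SE 0.033), which are ATF4 genes as well.

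Antigen presentation and interferon genes went both ways, as did all genes tested, of which 24.7% rose and 23.8% fell. The class I gene H2-K1 rose from 28.6 and 27.0 to 52.4 and 52.4 CPM (log2 0.91, SE 0.051) and the peptide-loading factor Tapbp from 54.2 and 54.3 to 86.1 and 91.1 CPM (0.70, SE 0.041). Of 7 class I genes 3 rose and none fell. The class II gene H2-Ab1 was low and fell from 1.95 and 1.86 to 0.644 and 0.622 CPM (-1.58, SE 0.25), and H2-Eb1 from 0.949 and 0.928 to 0.483 and 0.311 CPM (-1.18, SE 0.35). Of 7 class II genes 1 rose and 2 fell, and the riser was Cd74, the invariant chain, from 5.86 and 5.57 to 9.11 and 8.09 CPM (0.60, SE 0.11). Of 17 interferon-response genes 6 rose and 4 fell: the virus-tethering protein Bst2 from 26.4 and 25.9 to 52.1 and 54.8 CPM (1.03, SE 0.052), the signal transducer Stat2 by 0.72 (SE 0.045) and the factor Irf8 from 2.01 and 2.18 to 4.99 and 4.8 CPM (1.23, SE 0.14) rose, while the RNA sensor Ddx58 fell from 32 and 31 to 16.5 and 18.4 CPM (-0.86, SE 0.064). Beside these, the 5 leukocyte markers summed to 12.8 and 18.4 TPM in ESC and 6.97 and 8.12 in NrESC. Most of this was Cd68, a lysosomal glycoprotein, at 12.6 and 14.3 against 6.71 and 7.96 TPM, Ptprc was at 0 in 3 of the 4 libraries, and their part in these results was not tested.

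Lineage genes did not move as blocks. For comparison, 24.7% of all genes tested rose and 23.8% fell. Of 19 trophectoderm genes 9 rose and 5 fell: the keratins Krt8, from 45.9 and 43.2 to 93.5 and 101 CPM (log2 1.12, SE 0.044), and Krt18 (0.95, SE 0.092) rose, while the regulators Eomes, from 43.5 and 43.5 to 29.0 and 29.9 CPM (-0.56, SE 0.052), and Cdx2 (-1.0, SE 0.2) fell. Of 16 primitive endoderm genes 2 rose and 6 fell, and Gata6, a regulator of that lineage, was near 1 CPM and not called (0.31, SE 0.27, adjusted p = 0.355). Of 7 neuroectoderm genes 2 rose and 2 fell, with a median of -0.38. Sox1, an early neural factor, rose from 5.5 and 6.84 to 11.4 and 11.1 CPM (0.87, SE 0.11). Tubb3 (-0.49, SE 0.041) and Nes (-0.34, SE 0.054) were the genes that fell. Among 31 imprinted genes, which are expressed from 1 parental copy, 10 rose and 6 fell: the maternally expressed H19 fell from 6.67 and 7.51 to 2.19 and 2.07 CPM (-1.73, SE 0.12), and Meg3 rose from 46.0 and 44.7 to 79.4 and 79.5 CPM (0.81, SE 0.045). Of 23 germline genes held down by DNA methylation 8 fell and 2 rose, among them Dazl (-0.76, SE 0.071), an RNA-binding protein of germ cells, and the meiotic Hormad1 (-1.01, SE 0.096). Of 13 genes of the methylation machinery 7 fell and 2 rose, with Dnmt3l, a cofactor of de novo methylation, down from 142 and 144 to 105 and 107 CPM (-0.43, SE 0.032) and the demethylase Tet2 by 0.32 (SE 0.027).

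Outside the lists, the largest increases after the LXR targets included Eppk1, a cytoskeletal linker, from 3.6 and 3.54 to 13.7 and 15.7 CPM (log2 2.03, SE 0.095), the tight junction protein Cldn7 (1.84, SE 0.16), the membrane protease Hpn (1.62, SE 0.13), the peroxidase Epx (1.62, SE 0.19), Ubap1l (1.61, SE 0.12) and the kinesin Kif21b from 25.7 and 25 to 75.7 and 76.6 CPM (1.59, SE 0.049). Tgm2, the tissue transglutaminase and a retinoic acid target, rose from 21.1 and 19 to 62.7 and 64.9 CPM (1.67, SE 0.056). Of 16 genes of the retinoic acid pathway 4 rose and 3 fell, near the shares of all genes tested (24.7% and 23.8%). The receptor Rara rose by 0.44 (SE 0.04) and Rarg fell by 0.65 (SE 0.042). The largest decreases, beside those above, were the forkhead factor Foxd1 from 6.65 and 6.67 to 1.36 and 0.933 CPM (-2.49, SE 0.19), Smtnl1 (-1.83, SE 0.17), Enox1 from 20.8 and 19.9 to 5.41 and 6.46 CPM (-1.80, SE 0.096), the tetraspanin Cd37 (-1.76, SE 0.11), the lysyl oxidase Loxl2 from 18.1 and 16.5 to 4.69 and 5.84 CPM (-1.74, SE 0.094) and the adenylate kinase Ak7 (-1.73, SE 0.12). No NrESC library lay within the range of the ESC libraries in any of these, but the groups did not overlap for 71.8% of all genes tested either. Btg3, an antiproliferative factor, was called higher on 1 library, at 3.8 and 0.726 CPM in NrESC against 0.754 and 0.406 in ESC, and the call was lost without that library (0.31, adjusted p = 0.788).

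How the groups came to differ between passages 0 and 2 was read from each arm. From passage 0 to passage 2, 1782 genes rose (11.9%) and 2391 fell (15.9%) in NrESC, and 2461 rose (16.4%) and 2873 fell (19.1%) in ESC. Of these, 907 rose in both arms and 1314 fell in both. On log2(TPM + 1) values the split leaned the other way, with 2345 higher and 1392 lower in NrESC and 3072 higher and 1929 lower in ESC. The ESC changes included rises of Rnf225 (log2 2.27, SE 0.16), Fos (2.28, SE 0.17) and Zscan4b (1.95, SE 0.18) and falls of Aass (-1.65, SE 0.16), an enzyme of lysine breakdown, and the nuclear RNA Neat1 (-1.41). Xlr4c (-1.21) and the ubiquitin enzyme Ube2l6 (-1.19) fell as well.

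The difference between the arms was more positive at passage 2 than at passage 0 for 947 genes (6.3%) and more negative for 1076 (7.16%). The list counts were 7 up and 1 down of 20 for cholesterol synthesis, 14 up and none down of 28 for ATF4 and CHOP genes, 3 up and 11 down of 26 for naive pluripotency and none up and 11 down of 34 for 2-cell-like genes. Named genes reached their passage 2 difference in different ways. Aass fell in both arms, with ESC at 6.34 ± 0.061 CPM before and 2.03 ± 0.42 after, and NrESC at 5.91 ± 0.92 and 0.512 ± 0.11 (SD, n = 2 each), further in NrESC by -1.93 (SE 0.29, adjusted p = 5.85e-06). The neurofilament gene Nefm fell by 1.01 in ESC and by 2.35 in NrESC on the log2 scale. Zic2 rose by 0.69 (SE 0.054) in ESC and fell by 0.43 (SE 0.067) in NrESC, and Lefty2 rose by 0.35 (SE 0.032) and fell by 0.73 (SE 0.04). The serotonin receptor gene Htr5a did the reverse, with a fall from 18.7 ± 0.51 to 13.2 ± 1.0 CPM in ESC and a rise from 21.5 ± 0.57 to 32.2 ± 1.0 in NrESC (SD, n = 2 each).

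**Figure D4:**
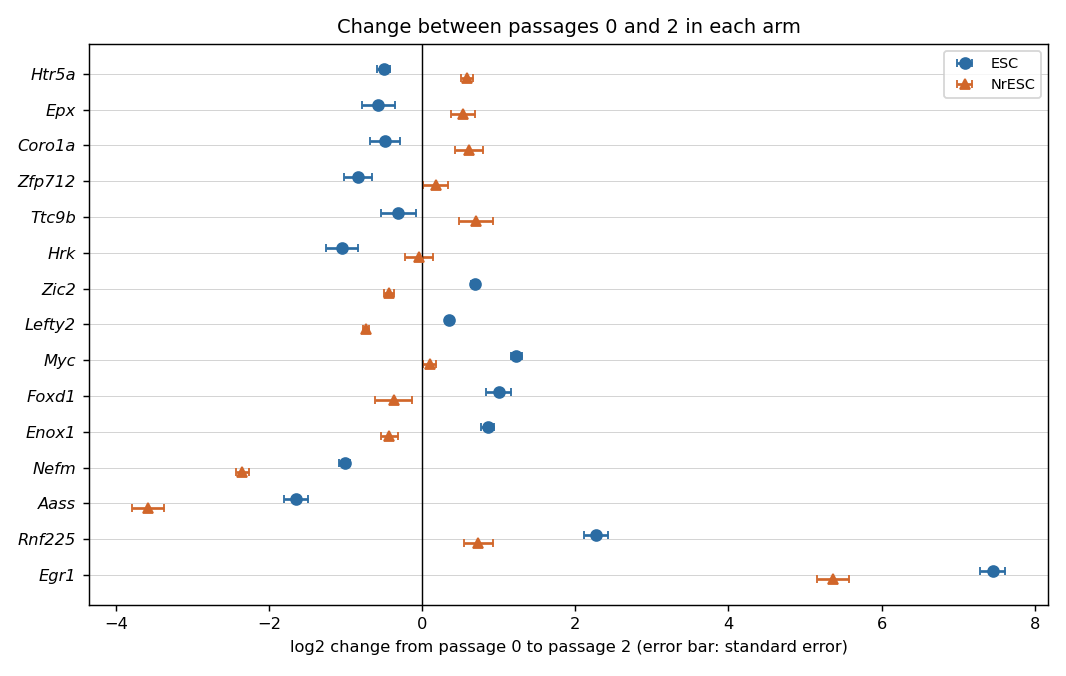
Log2 change from passage 0 to passage 2 in ESC (circles) and NrESC (triangles) for 15 genes with a difference of at least 2-fold between the arms' changes; error bars are standard errors from the model of 32 libraries. Egr1 rose in both arms (7.45 and 5.36), Aass fell in both (-1.65 and -3.58), and Zic2 and Lefty2 moved in opposite directions.

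At passage 4, 27.4% of genes were called higher and 26.9% lower in NrESC, and 2805 of the 3720 genes higher at passage 2 (75.4%) and 2681 of the 3573 lower (75%) were called so again, with their own control libraries. The difference was more positive at passage 4 than at passage 2 for 902 genes and more negative for 851, and on log2(TPM + 1) values for 303 and 2029. The median of LXR targets was 0.95, close to the 0.97 of passage 2, that of ATF4 and CHOP genes 0.67 and that of 2-cell-like genes -2.74. The formative list had a median of -0.26 against -0.59 at passage 2, and for 6 of its 14 genes the difference was more positive at passage 4 and for none more negative.

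**Figure D5:**
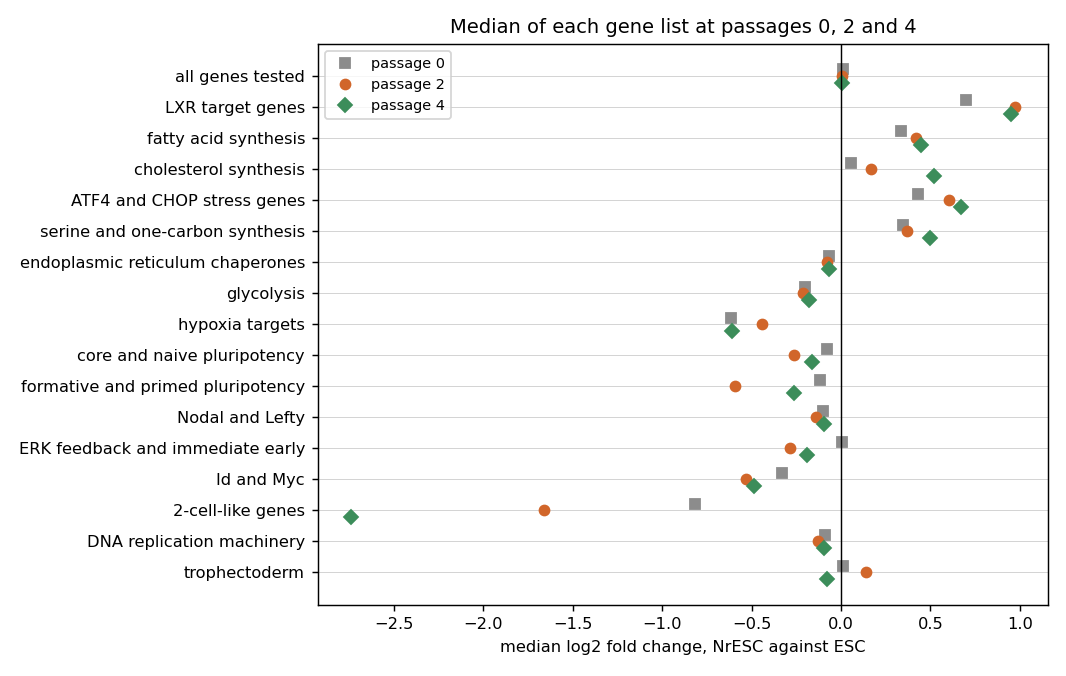
Median log2 fold change of NrESC against ESC for each gene list at passage 0 (squares), passage 2 (circles) and passage 4 (diamonds), each passage with its own 2 libraries per group. LXR targets lie at 0.70, 0.97 and 0.95 and 2-cell-like genes at -0.82, -1.66 and -2.74, while all genes tested lie at 0.0138, 0.00595 and 0.00518.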

How the data were processed

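Per the submitters' processing notes, STAR, Cufflinks 2.2.1, HTSeq 0.12.4, RSEM, DESeq2 and edgeR were used with the mouse build mm9, with no role given for each. The deposited table of whole-series expression holds RSEM expected counts for each symbol, in which a read matching several genes is divided among them. TPM values were deposited by the authors as well. Of the expected counts 0.837% were fractional and were rounded. Tests used edgeR 4.0.16 in R 4.3.3: TMM scaling, filterByExpr (15036 of 24890 symbols kept), a quasi-likelihood fit of all 16 groups of 2 libraries (16 residual degrees of freedom) and Benjamini-Hochberg adjustment over all genes tested at 0.05. Differences between passages were contrasts in this fit. Alternatives used DESeq2 1.42.0, limma 3.58.1 on log2(TPM + 1), other scaling, no filter, a replicate block and leaving out libraries; the code was tested on simulated data.

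Genes were named by rule: the 14 highest and 14 lowest called log2 fold changes among genes whose log2 CPM averaged 1 or more, the 3 genes of lowest p in every list, all tested receptor and LXR target genes, the 6 highest and 6 lowest called passage differences, the 4 highest and 4 lowest called ESC changes, and a short list of single genes. Members, lists and single genes were chosen with earlier results of these data known. The 11 transcripts of the second ESC library, further genes named as examples of their lists and the promoters shown were chosen after their values were seen. Promoters came from RefSeq (GRCm38.p6), and no coordinates were taken from mm9. Some genes picked by this rule were left out and are not reported here.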

Additional observations from a re-analysis of the deposited data

Results flagged for a closer look

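The difference between NrESC and ESC changed with passage for part of the genes, by a test of the change itself in edgeR's quasi-likelihood model. It was more positive at passage 2 than at passage 0 for 947 genes and more negative for 1076, and more positive at passage 4 than at passage 2 for 902 and more negative for 851. The named genes with a called change of 2-fold or more are given here, on the log2 scale.

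From passage 0 to passage 2 the difference moved by -2.09 for Egr1, -1.93 for Aass, -1.54 for Rnf225, -1.4 for Zscan4b, -1.37 for Foxd1, -1.35 for Nefm, -1.31 for Tmem92, -1.3 for the monoacylglycerol lipase gene Mgll, and by -1.29 for both Enox1 and H2-Eb1. It moved by -1.21 for Pramel7, -1.13 for Myc, -1.12 for Zic2, -1.11 for Pramel6, -1.09 for H19, -1.08 for Lefty2 and -1.01 for Smtnl1. In the other direction it moved by 1.1 for Epx and for Coro1a, an actin regulator of blood cells, 1.09 for Htr5a, 1.02 for Zfp712 and 1.01 for Ttc9b and for Hrk, a BH3-only activator of apoptosis. The call was lost without the first NrESC library of passage 2 for Smtnl1 (-0.52, adjusted p = 0.141), without the second NrESC library of passage 0 for Mgll (-0.80, adjusted p = 0.217) and Tmem92 (-1.04, adjusted p = 0.0689), and without the first ESC library of passage 2 for Zfp712 (0.73, adjusted p = 0.057). H2-Eb1, Ttc9b and Hrk each lost it in 3 or more of the 8 runs that left out 1 library.

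From passage 2 to passage 4 the difference moved by 1.42 for Egr1, 1.22 for the transglutaminase gene Tgm3, 1.13 for Enox1, 1.07 for the linker histone gene Hist1h1c and 1.02 for Myc. It moved by -2.59 for Btg3, -1.44 for Fam124a, -1.37 for the protease inhibitor gene Serpine2 and -1.24 for Mgll. The 2-cell-like genes moved by -1.36 (Zscan4b), -1.33 (Zscan4d), -1.27 (Zscan4f), -1.18 (Zscan4c) and -1.09 (Tmem92). The Btg3 value was -0.82 (adjusted p = 0.681) and the Tmem92 value -0.89 (adjusted p = 0.0574) without the first NrESC library of passage 2.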

How the results depend on the processing

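The counts at passage 2 without the 2-fold limit stayed within 1.5 times under other scaling, filtering and tools. They were 3543 higher and 3773 lower with edgeR's RLE scaling in place of TMM, and 3095 and 3335 with DESeq2. Leaving out 1 library gave 3059 to 3162 higher and 2989 to 3083 lower, and 253 to 270 and 346 to 383 by 2-fold or more. On log2(TPM + 1), which shrinks low genes, 49 and 59 passed 2-fold, against 273 and 424 in the main fit. The passage 2 minus passage 0 counts ranged over 599 to 824 and 752 to 880 with 1 library left out, with 599 without the first ESC library of passage 0 and 629 without the second of passage 2. The passage 4 minus passage 2 counts ranged over 486 to 920 and 488 to 853, were 595 and 523 from the compared libraries alone and 303 and 2029 on log2(TPM + 1), where the share higher was 13.0%; the cause was not tested. The change within NrESC ranged over 1142 to 1507 and 1512 to 1938, lowest without the first library of passage 2, with 1392 lower on log2(TPM + 1), and that within ESC over 1779 to 1974 and 2058 to 2306. Replicate numbers did not pair the libraries (correlation of deviations -0.00574 at passage 2); with the replicate block the passage 2 counts were 3602 and 3444. Uncalled values changed sign for Dusp6 (-0.137 to 0.114 with 1 library left out, above 0 without the first NrESC library) and Hist1h1c (-0.267 to 0.14, above 0 without the second ESC or the first NrESC library). With 2 libraries a group, genes near 1 CPM such as Nr1h3 had standard errors too wide to show small differences.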
